A study of Mus musculus with 2 samples.

Results

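The replication-dependent histone genes of the mouse supply the core histones H2A, H2B, H3 and H4 and the linker histone H1 while DNA is copied. They were taken here as the protein-coding genes of the mm9 annotation whose symbol starts with Hist1h, Hist2h, Hist3h or Hist4h, which gave 67 of 22380 protein-coding genes. The Hist1 cluster on chromosome 13 held 55 of them, the Hist2 cluster on chromosome 3 held 9, Hist3 on chromosome 11 held 2 and Hist4 on chromosome 6 held 1. By product, 6 were H1 genes, 19 H2A, 18 H2B, 11 H3 and 13 H4 genes. Open chromatin was mapped by DNase-seq, which sequences DNA ends cut by the nuclease DNase I in intact nuclei. One sample was G1E-ER4 cells, erythroid cells in which Gata1, the transcription factor of red cell maturation, is restored, after 24 h of differentiation with 10 nM beta-estradiol. The other was untreated G1E cells, the erythroid progenitor line that lacks Gata1. Both lines are male, of strain 129 and derived from embryonic stem cells, per the labels. Each state is 1 sample with 2 peak lists, and the line, the restored gene and the hormone differ together, so their effects cannot be told apart. No label tells whether the paired lists of a state stand for separate cultures, and with 1 sample per state no test between states was possible.

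Replication-dependent histone genes are switched on at the entry to S phase and supply the histones that wrap newly made DNA. Most lack introns, and their mRNAs end in a conserved stem-loop in place of a poly(A) tail, which the stem-loop binding protein Slbp holds during processing and translation. The genes lie in clusters, many as head-to-head pairs of an H2A and an H2B gene that share the short stretch between their starts, and they are transcribed in a nuclear structure, the histone locus body, built around the coactivator Npat. In erythroid maturation cells pass through several divisions before they leave the cell cycle, so that histone supply stays in demand for much of the process.

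Every list held 100000 peaks. The value of a peak is its density of DNase ends as the authors deposited it, with no stated scaling between lists, so each peak was ranked within its list and given a percentile, 100 for the strongest. A gene has a promoter peak in a list when any peak of that list overlaps by at least 1 bp the 1 kb on either side of an annotated start, and its value is the percentile of the strongest such peak. Read depth is unknown. The median width of a peak was 579 and 836 bp in the G1E-ER4 lists, against 520 and 646 bp in the G1E ones. All 10 erythroid progenitor markers looked at, Gata2, Kit and Klf1 among them, had a promoter peak in all 4 lists. The same held for none of 3 T cell, 3 B cell and 4 germ cell markers and for 1 of 2 hepatocyte markers, Apoa1. These markers were not all without peaks. G1E-ER4 list 2 held a promoter peak for all 4 germ cell markers (34.7 to 61.6), for Cd3d (53.6) and for Cd79a (15.7). In G1E list 1 2 germ cell markers, Ddx4 (67.8) and Dazl (13.6), had one.

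Nearly all replication-dependent histone genes were open at the promoter in both states. A peak within 1 kb of a start was present for 65 genes in G1E-ER4 list 1, 65 in G1E-ER4 list 2, 67 in G1E list 1 and 67 in G1E list 2. In all 4 lists 65 of 67 genes (97.01%) had one, beside 52.4% of all protein-coding genes, and none lacked a peak in every list, beside 27.3% of all genes. The peaks were also high in their lists. All 4 percentiles were over 75 for 57 of 67 genes, beside 40.8% of all genes. Among genes with a peak in all 4 lists, however, the median of the mean percentile was 89.3 for histone genes and 93.2 for all genes, so a histone promoter stood somewhat lower in rank than the usual open promoter. Neighbouring genes share peaks, so the 67 genes are not 67 separate measurements. The strongest promoter peaks of the genes were 42 and 45 distinct peaks in the G1E-ER4 lists, against 41 and 40 in the G1E lists, of which 18 to 20 per list served at least 2 genes and none more than 3.

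**Figure D1:**
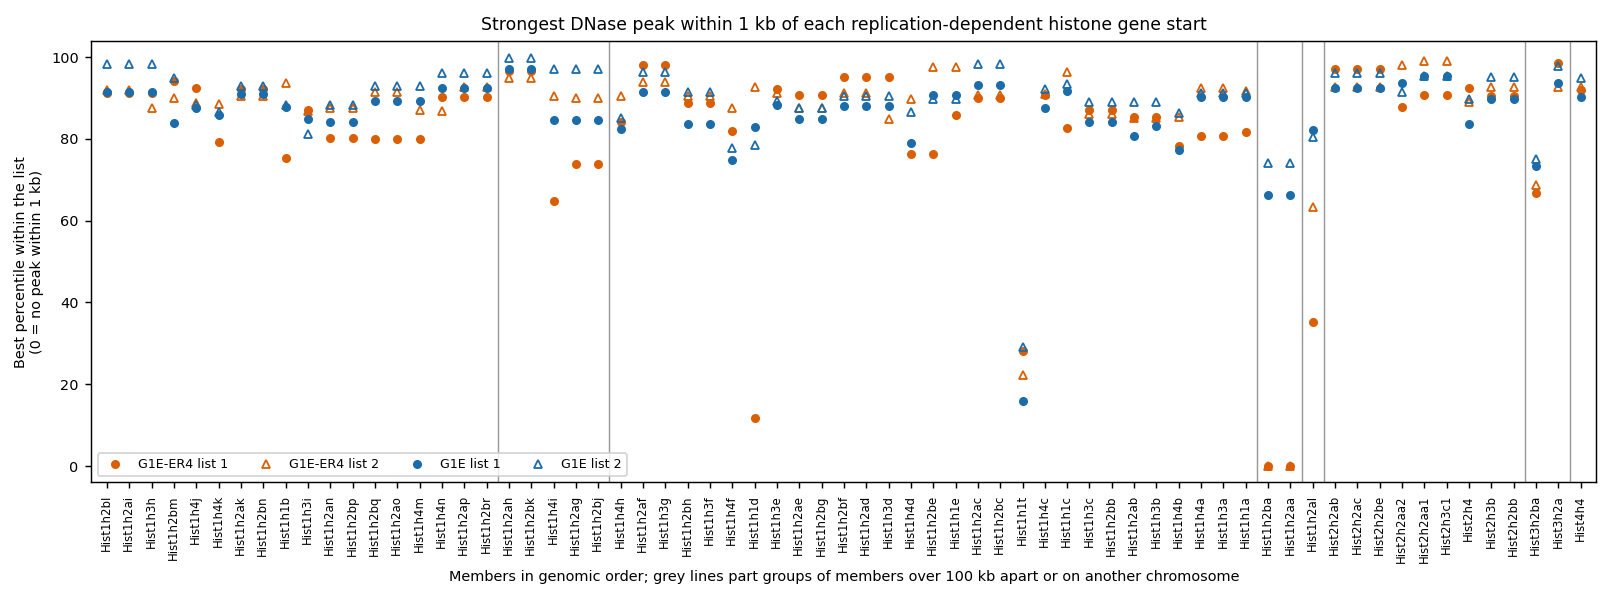
Percentile of the strongest peak within 1 kb of a start (vertical axis, 0 for no peak) for the 67 genes in genomic order, in G1E-ER4 lists 1 and 2 (orange) and G1E lists 1 and 2 (blue). Most points lie over 75 in every list. The exceptions are Hist1h1t, low in all 4 lists, the pair Hist1h2ba and Hist1h2aa at 0 in both G1E-ER4 lists, Hist1h2al, Hist3h2ba single low points of Hist1h1d, Hist1h4i, Hist1h2ag and Hist1h2bj, and Hist1h4f, just under 75 in G1E list 1.

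The 6 linker histone genes ranged from strong to weak. Linker histone H1 binds DNA where it enters and leaves the nucleosome. Hist1h1c, a somatic subtype (chr13:23830676-23832235, plus strand), had percentiles of 82.7 and 96.4 in the G1E-ER4 lists, against 91.8 and 93.5 in the G1E lists. Hist1h1e (chr13:23713624-23714371, minus strand), another somatic subtype, had 85.8 and 97.6 in G1E-ER4, against 90.8 and 89.7 in G1E. For both genes G1E-ER4 list 1 was the lowest and G1E-ER4 list 2 the highest of the 4 lists, so the states overlapped. Hist1h1d (chr13:23646901-23650721, plus strand) had 11.8 and 92.8 in G1E-ER4, against 82.8 and 78.5 in G1E. Its low value came from G1E-ER4 list 1 alone, where a peak of 331 bp covered the start at rank 88014, against rank 7192 and a width of 2333 bp in G1E-ER4 list 2. Hist1h1t, the linker histone of the testis (chr13:23787680-23788588, plus strand), had 28.2 and 22.2 in G1E-ER4, against 15.96 and 29.2 in G1E. It was the lowest of the 65 genes with a peak in all 4 lists. Its peaks also lay elsewhere, with summits 978 and 495 bp past the start in G1E-ER4, against 580 and 546 bp past it in G1E, while the Hist1h1c summits lay within 57 bp of the start in all 4 lists.

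The 200 bases before the starts of these 2 genes are shown because they hold the same elements beside opposite values. They are given 5′ to 3′ on the plus strand of mm9, chr13:23830476-23830675 for Hist1h1c and chr13:23787480-23787679 for Hist1h1t, with the letters AAACACA of the AC box, an element of H1 promoters, and CCAAT, the box bound by NF-Y, in capitals on either strand.
Hist1h1c: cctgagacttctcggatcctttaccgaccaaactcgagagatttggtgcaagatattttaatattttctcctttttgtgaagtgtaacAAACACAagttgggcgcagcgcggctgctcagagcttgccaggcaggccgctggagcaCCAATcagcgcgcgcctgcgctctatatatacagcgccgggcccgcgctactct
Hist1h1t: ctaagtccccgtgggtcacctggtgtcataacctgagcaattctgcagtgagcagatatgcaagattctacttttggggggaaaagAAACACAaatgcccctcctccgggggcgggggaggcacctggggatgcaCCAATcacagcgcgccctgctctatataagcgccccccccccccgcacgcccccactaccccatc
In both genes the AC box stands upstream of CCAAT. Within the window searched, the 250 bases before to 50 after the start, AAACACA was present in 5 of 6 H1 genes, all but Hist1h1a, against 14.9% of all 67 histone promoters and 6.43% of all promoters. The letters were thus in the promoter of Hist1h1t as in those of 4 H1 genes with higher mean percentiles.

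The H2A and H2B genes were mostly arranged as pairs. Histones H2A and H2B enter the nucleosome as dimers. Of their 37 genes, 24 formed 12 head-to-head pairs with starts 168 to 306 bp apart, 228.5 bp at the median. In 11 of the 12 pairs both genes had 1 and the same strongest peak in every list. With starts this close, the 1 kb windows of a pair largely overlap, so a shared strongest peak follows mostly from the window. Counted over lists, the pairs shared a strongest peak 46 times, and its summit lay between the starts 41 times. The strongest pair was Hist1h2ah and Hist1h2bk, with percentiles of 96.5 and 94.8 in the G1E-ER4 lists, against 97.1 and 99.8 in the G1E lists. Their peak held rank 193 of the 100000 in G1E list 2. Hist2h2ac and Hist2h2be of the Hist2 cluster had 97.1 and 92.8 in G1E-ER4, against 92.5 and 96.0 in G1E, an order of the lists in which the states overlapped. The only other type of head-to-head pair joined the H2B gene Hist1h2bh to the H3 gene Hist1h3f over 693 bp, at 88.7 and 90.5 in G1E-ER4, against 83.7 and 91.4 in G1E.

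The stretches between the starts of 3 H2A-H2B pairs are shown because the shared summits fall inside 2 of them and outside the third. All are on the plus strand of mm9, chr13:22127513-22127689 for the first, chr3:96024804-96025043 for the second and chr13:24026026-24026325, the first 300 bases between the starts, for the third. Capitals mark CCAAT, the octamer ATTTGCAT known from H2B promoters, the TATA box letters TATAAA and the AC box letters AAACACA, on either strand.
Hist1h2ah-Hist1h2bk: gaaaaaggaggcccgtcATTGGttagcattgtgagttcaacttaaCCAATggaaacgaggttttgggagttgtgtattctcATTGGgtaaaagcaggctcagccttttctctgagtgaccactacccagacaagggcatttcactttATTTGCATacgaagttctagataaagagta
Hist2h2ac-Hist2h2be: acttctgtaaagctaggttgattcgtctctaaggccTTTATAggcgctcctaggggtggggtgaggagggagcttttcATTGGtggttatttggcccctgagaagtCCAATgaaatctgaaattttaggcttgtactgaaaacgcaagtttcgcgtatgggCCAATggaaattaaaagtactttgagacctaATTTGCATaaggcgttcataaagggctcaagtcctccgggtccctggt
Hist1h2ba-Hist1h2aa: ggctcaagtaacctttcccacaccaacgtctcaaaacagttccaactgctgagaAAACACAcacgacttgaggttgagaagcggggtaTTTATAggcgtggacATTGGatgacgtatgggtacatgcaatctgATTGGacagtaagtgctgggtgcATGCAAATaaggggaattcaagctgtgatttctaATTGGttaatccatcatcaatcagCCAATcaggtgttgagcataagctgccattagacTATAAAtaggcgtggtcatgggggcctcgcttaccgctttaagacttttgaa
All 3 stretches carry CCAAT several times and the octamer once. The third, between the testis genes Hist1h2ba and Hist1h2aa, is described with its peaks further on. CCAAT was found in all 19 H2A and all 18 H2B promoters, and the octamer in 7 H2A and 8 H2B promoters and in no promoter of another histone type. Promoters of pairs overlap, so 1 copy of a motif can count for both genes.

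The other H2A and H2B genes ranged from strong to weak as well. Hist3h2a (chr11:58768187-58770176, plus strand) had percentiles of 98.6 and 92.6 in G1E-ER4, against 93.8 and 97.7 in G1E, the second highest mean of the H2A genes. Its neighbour Hist3h2ba (chr11:58762413-58763032, plus strand), on the same chromosome, had 66.7 and 68.7 in G1E-ER4, against 73.3 and 75.01 in G1E. Hist3h2ba was thus the lowest H2B gene with a peak in all lists, and its percentiles did not overlap between states. Its summits lay at -348 bp from the start in G1E-ER4 list 1 and at 231 to 251 bp, inside the gene, in the other 3 lists. Hist1h2al (chr13:51298057-51298434, minus strand) lies far from the rest of the Hist1 cluster, and the RefSeq annotation of GRCm38 lists it as a transcribed pseudogene. It had 35.2 and 63.4 in G1E-ER4, against 82.2 and 80.4 in G1E, again without overlap between states.

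The 11 H3 genes were all high. H3 and H4 make up the tetramer at the centre of the nucleosome. All 11 had all 4 percentiles over 75, from 80.8 to 98.0 in G1E-ER4 list 1, 84.8 to 99.1 in G1E-ER4 list 2, 83.2 to 95.4 in G1E list 1 and 81.2 to 98.3 in G1E list 2. The highest means were those of Hist2h3c1 (chr3:96049477-96052431, plus strand), with 90.7 and 99.1 in G1E-ER4, against 95.4 and 95.3 in G1E, and Hist1h3g (chr13:23627291-23627820, plus strand), with 98.0 and 94.0 in G1E-ER4, against 91.3 and 96.4 in G1E. The first has 2 annotated starts, 1 of them next to the start of Hist2h2aa1, and took the same peaks as that gene. The lowest means were those of Hist1h3b, with 85.4 and 85.2 in G1E-ER4, against 83.2 and 89.0 in G1E, and Hist1h3i, with 87.1 and 86.8 in G1E-ER4, against 84.9 and 81.2 in G1E. Not every H3 value is the gene's own. The strongest peak within 1 kb covered the start of 5 and 8 of the 11 genes in the G1E-ER4 lists and of 7 and 9 in the G1E lists. The other values came from the peak of a neighbour, a peak beside the gene or, for Hist1h3f in list 1 of each state, a peak inside it.

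The 13 H4 genes were all open in all 4 lists and ranked a little lower than the H3 genes. Their median mean percentile was 87.3, beside 89.6 for H3, 90.8 for H2B, 92.8 for H2A and 87.5 for H1. Hist4h4, the single gene of its cluster (chr6:136752589-136752900, minus strand), had the highest mean, with 92.1 and 92.8 in G1E-ER4, against 90.3 and 94.9 in G1E. Hist1h4n followed with 90.3 and 86.7 in G1E-ER4, against 92.5 and 96.2 in G1E. The lowest were Hist1h4b, with 78.2 and 85.3 in G1E-ER4, against 77.4 and 86.3 in G1E, and Hist1h4f (chr13:23643127-23643517, minus strand), with 82.0 and 87.5 in G1E-ER4, against 74.9 and 77.8 in G1E. Both G1E-ER4 values of Hist1h4f lay above both G1E values. As with H3, not every H4 value is the gene's own. The strongest peak covered the start of 10 and 13 of the 13 genes in the G1E-ER4 lists and of 10 and 13 in the G1E lists.

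The 200 bases before the start of Hist1h4f and of Hist1h4c, an H4 gene with 90.7 and 91.0 in G1E-ER4, against 87.5 and 92.3 in G1E that was chosen after its values were seen, are shown because both hold the element particular to H4 promoters. They are given 5′ to 3′ on the minus strand of mm9, chr13:23643518-23643717 for Hist1h4f and chr13:23790324-23790523 for Hist1h4c, with GGTCCG of the H4 element, the part bound by the factor Hinfp, and CCAAT in capitals on either strand.
Hist1h4f: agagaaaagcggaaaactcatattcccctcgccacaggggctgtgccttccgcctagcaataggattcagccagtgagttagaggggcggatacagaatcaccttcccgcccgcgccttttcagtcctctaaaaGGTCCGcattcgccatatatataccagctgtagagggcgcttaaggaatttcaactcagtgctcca
Hist1h4c: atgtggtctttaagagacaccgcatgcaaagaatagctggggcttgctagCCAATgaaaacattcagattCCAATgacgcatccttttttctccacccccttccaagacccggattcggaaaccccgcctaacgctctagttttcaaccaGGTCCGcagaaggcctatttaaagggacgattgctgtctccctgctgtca
GGTCCG stands once in each. It was found in 12 of 13 H4 promoters, all but Hist1h4a, in 3 other histone promoters (Hist1h3i, Hist1h3f and Hist1h2bh, the last 2 a head-to-head pair) and in 9.77% of all promoters. CCAAT was rarer here than in the other types, with 4 of 13 H4 promoters.

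Hist1h2aa and Hist1h2ba, an H2A and an H2B gene known from the testis, were the 2 genes open in 1 state only. They form a head-to-head pair (chr13:24026331-24026720, plus strand, and chr13:24025637-24026025, minus strand) away from the other genes of the cluster. Neither G1E-ER4 list held a peak within 1 kb of them, while both genes took percentiles of 66.3 in G1E list 1 and 74.1 in G1E list 2. A peak in both lists of G1E and in neither of G1E-ER4 was found for 0.804% of all genes, and the opposite for none of the histone genes and 1.18% of all genes. The G1E peaks did not lie where those of the other pairs lay. In G1E list 1 the peak (chr13:24026141-24026849) had its summit inside Hist1h2aa, 304 bp past its start, and in G1E list 2 the peak (chr13:24025521-24026026) had its summit inside Hist1h2ba. Neither summit stood between the starts, and these 2 peaks did not overlap each other. A weaker peak at 57.4 also covered the start of Hist1h2ba in G1E list 1, and 1 at 4.95 lay within 250 bp of the start of Hist1h2aa in G1E list 2. Of the 20-base words in 100 bp on either side of these summits, 40.1% and 76.4% occurred more than once in the genome, and the part of such copies in the peaks was not tested. When a peak had to cover the start itself, a choice added after seeing the data, Hist1h2ba alone kept a peak in both G1E lists.

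Along the Hist1 cluster, the histone genes carried promoter peaks and most other genes between them did not. Apart from Hist1h2al, the genes lie at chr13:21807632-24026720 in groups parted by more than 100 kb, of 18, 5, 29 and 2 genes. In the group of 29 genes, 14.4 and 18.6% of the sequence lay under peaks in the G1E-ER4 lists, against 12.9 and 19.7% in the G1E lists, beside 3.42 and 4.24% and 2.88 and 3.75% of the genome in the same lists. In the gap of 1487 kb before it, which holds pheromone receptor genes, the shares were 1.46 and 2.42% in G1E-ER4, against 1.47 and 3.004% in G1E. The gap of 197.6 kb between the groups of 18 and 5 genes was not poor in peaks, with 12.5 and 9.97% in G1E-ER4, against 5.63 and 14.2% in G1E. None of the 32 Vmn1r pheromone receptor genes within the cluster had a promoter peak in any list. Of the 16 other non-histone genes there, 6 had one in all 4 lists (37.5%) and 6 in none. Those in none included V1rh19, which its symbol kept out of the Vmn1r count. Those in all 4 included Zfp322a, a zinc finger gene, with 75.1 and 96.1 in G1E-ER4, against 93.5 and 95.4 in G1E. They also included Gm17658, which had the same percentiles in every list as the histone gene Hist1h4d next to it. All 9 Hist2 genes, both Hist3 genes and Hist4h4 were in all 4 lists, and the median mean percentile was 94.6 in Hist2 and 88.6 in Hist1.

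**Figure D2:**
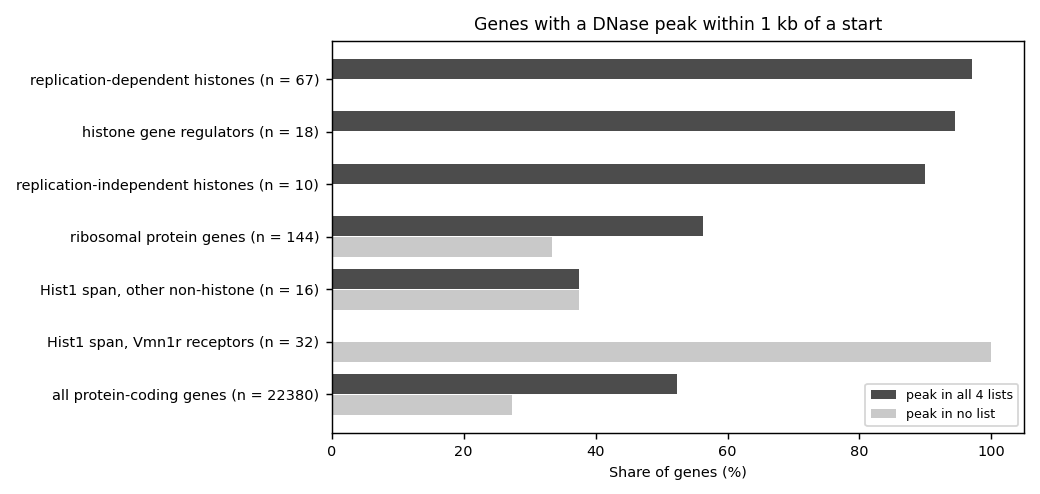
Share of genes (horizontal axis, percent) with a DNase peak within 1 kb of a start in all 4 lists (dark bars) and in no list (light bars), for the histone genes and 5 other sets above all protein-coding genes. The bar for all 4 lists is 97.01% for the 67 replication-dependent histone genes, 0 for the Vmn1r receptor genes that lie among them and 52.4% for all genes.

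Between the states, most histone promoters differed by a few percentile points, with more genes lower than higher in G1E-ER4, as among all genes. Over the 65 genes with a peak in all 4 lists, the median difference of the mean percentile, G1E-ER4 minus G1E, was -0.70. Of these, 25 were higher and 40 lower in G1E-ER4. Over all genes with a peak in all 4 lists the median was -0.62, with 4743 higher and 6978 lower. The lean was thus not particular to the histone genes. The median size of the difference was 2.84 percentile points, and the 2 lists of a state differed by 3.97 points in G1E-ER4, against 3.63 points in G1E at the median. The first is a difference between means of 2 lists and the others between single lists, so their sizes cannot be compared. Both G1E-ER4 lists stood above both G1E lists for 8 genes, beside 15.5% of all genes with a peak in any list, and below them for 11 genes, beside 11.7%. These shares, 8 and 11 of 67, were near those of all genes, so neither count sets the histone genes apart. By these counts all genes were more often higher than lower in G1E-ER4, the reverse of the histone genes.

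The 8 higher genes lay in the Hist1 groups of 29 and 18 genes. Hist1h4f had the largest difference, with state means of 84.7 in G1E-ER4, against 76.3 in G1E, a difference of 8.38 points. The head-to-head pair Hist1h2bf and Hist1h2ad, which share 1 peak, followed with 95.1 and 91.3 in G1E-ER4, against 88.1 and 90.4 in G1E, a difference of 3.94. The H3 gene Hist1h3i differed by 3.91, and the H3 gene Hist1h3e, with 92.1 and 91.3 in G1E-ER4, against 88.2 and 89.2 in G1E, by 2.99. The Hist1h3e peak of G1E-ER4 list 1 did not cover the start and had its summit at -938 bp. Its summits in the other lists lay at -107 to -83 bp, so the lists compare different sites. For the pair, the lower G1E-ER4 value and the higher G1E value lay close together, and for Hist1h4f they lay farther apart. Another head-to-head pair, Hist1h2ae and Hist1h2bg, was parted only by 87.673 in G1E-ER4 list 2 against 87.6695 in G1E list 2. The Hist1h4j peak of G1E-ER4 list 1 did not cover the start and had its summit at -753 bp.

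Of the 11 lower genes, Hist1h2aa and Hist1h2ba had no G1E-ER4 peak, and Hist1h2al had the next largest difference, -32.0 points. Its strongest G1E-ER4 list 1 peak had its summit at -945 bp from the start, whereas the peaks of the other 3 lists covered the gene. A weaker peak of G1E-ER4 list 1, at 17.7, covered the Hist1h2al start. Hist1h4m, an H4 gene at the edge of 1 of 2 identical copies described further on, had 79.9 and 87.2 in G1E-ER4, against 89.3 and 92.8 in G1E, and Hist1h4n, at the edge of the other copy, had state means of 88.5 in G1E-ER4, against 94.3 in G1E. In 3 of the 4 lists both genes took the peak of the H2A-H2B pair next to them, and in G1E-ER4 list 2 a peak of their own at the start. Hist3h2ba differed by -6.47. The other 5 genes, Hist1h3h, Hist1h2bc, Hist1h2ac, Hist1h2bk and Hist1h2ah, differed by -5.54 to -2.80 and had percentiles of 87.4 or more in every list. Of these, Hist1h3h took a peak of its own at the start in G1E-ER4 list 2 only. In the other lists it took the peak of the pair Hist1h2bl and Hist1h2ai. That pair had 91.2 and 91.9 in G1E-ER4, against 91.4 and 98.3 in G1E, so its states overlapped. No gene of Hist2 or Hist4 was among those without overlap.

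**Figure D3:**
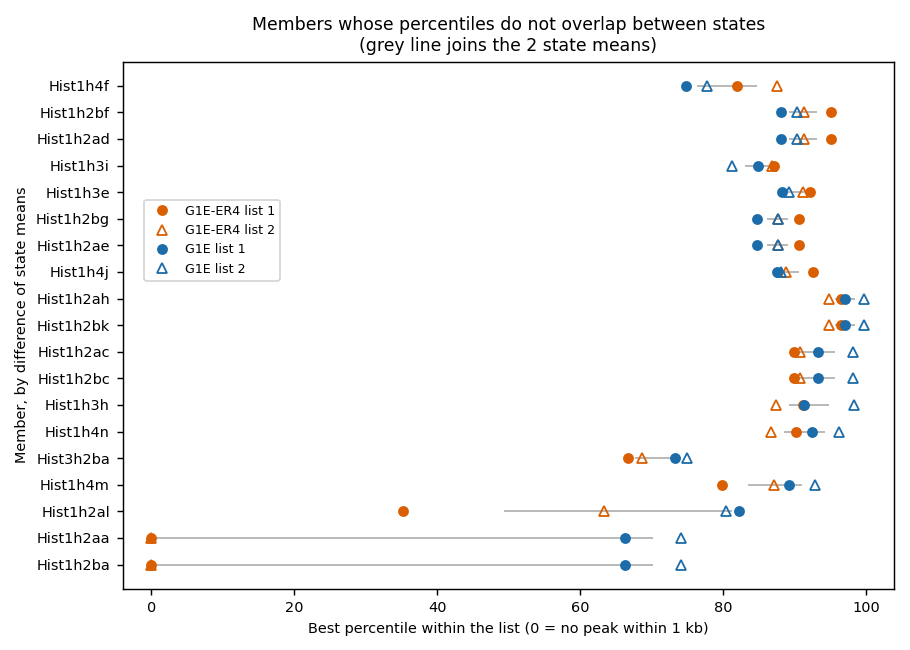
Percentiles (horizontal axis, 0 for no peak) of the 19 genes whose values do not overlap between states, in G1E-ER4 lists 1 and 2 (orange) and G1E lists 1 and 2 (blue), with a grey line between the state means. The 8 genes higher in G1E-ER4 are at the top with differences of 2.84 to 8.38 points, and the largest distances, at the bottom, are those of Hist1h2al, Hist1h2aa and Hist1h2ba, all lower in G1E-ER4.

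The groups of the Hist1 cluster leaned in different directions by state means, which was not tested. Of all genes with a peak in all 4 lists, 4743 were higher and 6978 lower in G1E-ER4. Neighbours within a group often share a strongest peak, so the counts below are not counts of separate peaks. In the group of 18 genes 3 were higher and 15 lower in G1E-ER4 by state means, with a median difference of -2.89. In the group of 29 genes 17 were higher and 12 lower, with a median of 0.69. In the group of 5 genes all 5 were lower, with a median of -8.81, but for 3 of them, Hist1h4i, Hist1h2ag and Hist1h2bj, the states overlapped. Hist1h4i had 64.8 and 90.5 in G1E-ER4, against 84.6 and 96.997 in G1E, so that list 1 was the lower one in both states. Its summits lay at -69 and -52 bp from the start in G1E-ER4. Both G1E values came from the peak of the pair Hist1h2ag and Hist1h2bj, with summits at -1853 and -1746 bp, so the states compare different sites. In the 10 Mb window around these groups the log2 ratio of all G1E-ER4 to all G1E peaks was 0.01, and in the window of the Hist2 cluster, where 5 genes were higher and 4 lower, it was 0.34.

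Single lists set much of the order. G1E list 1 gave the lowest of the 4 values for 27 of 65 histone genes (41.5%), beside 15.8% of all genes, and the highest for 1. G1E list 2 gave the highest value for 34 (52.3%), beside 22.0% of all genes. G1E-ER4 list 1 was the lowest for 29 (44.6%), beside 52.9% of all genes. Without G1E list 2, 28 genes counted as higher in G1E-ER4, and without G1E list 1, 37 counted as lower. Without G1E-ER4 list 1 the higher count was 22, and without G1E-ER4 list 2 the counts were 16 higher and 35 lower. A state left with 1 list makes non-overlap easier for any gene. The same counts over all genes were not computed, so these do not set the histone genes apart. The median difference was 0.24 without G1E list 2 and 0.36 without G1E-ER4 list 1, so its sign depends on which lists are kept.

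The peaks themselves stood just upstream of the histone genes and often covered them whole. The median distance from start to summit was -83 and -62 bp in the G1E-ER4 lists, against -65 and -72 bp in the G1E lists, beside -54 and -24 bp and -26 and -40 bp for all genes. By type, the H2B summits lay -125 and -121 bp from the start in G1E-ER4, against -159.5 and -106 bp in G1E, and the H4 summits -69 and -32 bp in G1E-ER4, against -36 and -28 bp in G1E. Histone genes are short, with a median span of 530 bp, and 61 of 67 have a single exon. The strongest peak covered the whole gene for 18.5 and 26.2% of histone genes in the G1E-ER4 lists, against 40.3 and 68.7% in the G1E lists, beside 1.52 to 2.82% of all genes. The median width of these peaks was 1100 and 1053 bp in G1E-ER4, against 1220 and 2188 bp in G1E.

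**Figure D4:**
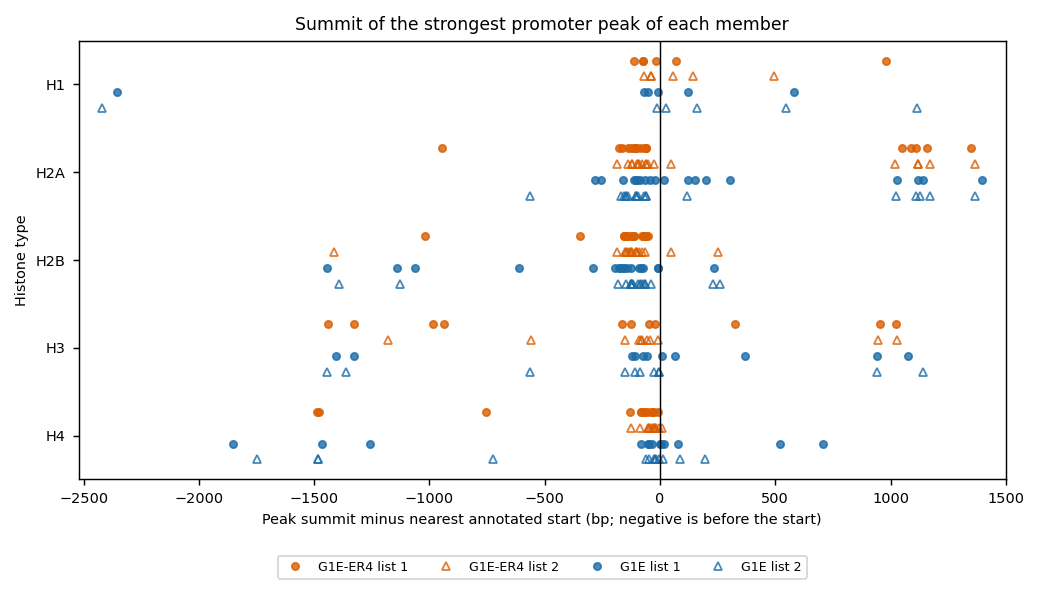
Distance of the summit of the strongest promoter peak from the nearest annotated start (horizontal axis, bp, negative before the start) by histone type, for G1E-ER4 lists 1 and 2 (orange) above G1E lists 1 and 2 (blue). Most H2A, H2B and H4 points of every list lie within 250 bp of the start, with some H2A points far past it. The share within 250 bp was 50 to 83.3% for H1 and 36.4 to 63.6% for H3. Points about 1000 bp or more away come from peaks that meet the 1 kb around a start while their summit lies elsewhere. All H4 summits of G1E-ER4 list 2 lie within 250 bp of the start.

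Histone genes of a type resemble each other in sequence, and tags of 20 bases, which were kept at the best match when they had several, cannot be told apart between identical stretches. Of the 20-base words within 1 kb of the start, 31.4% at the median occurred more than once in the genome, with a range of 2.83 to 100%, beside 7.92% for all genes. The repeats sat inside the genes. In the 500 bases from the start on the median was 70.7%, and in the 500 bases before it 22.2%, beside 2.91 and 4.57% for all genes. Between the starts of the H2A-H2B pairs the share was 0 to 6.06% except in 2 pairs at 100%. These are Hist1h2bq with Hist1h2ao and Hist1h2ap with Hist1h2br, which lie in 2 inverted copies (chr13:21893127-21903649 and chr13:21924031-21934553) identical over 10523 bp. Hist1h2bq and Hist1h2ao had 79.9 and 91.4 in G1E-ER4, against 89.3 and 92.8 in G1E, and Hist1h2ap and Hist1h2br had 90.3 and 92.6 in G1E-ER4, against 92.5 and 96.2 in G1E. Tags of these copies could have come from either, so their values cannot be told apart. Hist2h2aa2 and Hist2h2aa1 likewise share 663 identical bases. The stretch between the starts of Hist1h2bq and Hist1h2ao (plus strand of mm9, chr13:21902069-21902235, CCAAT on either strand in capitals) is shown as the sequence that both copies hold.
Hist1h2bq-Hist1h2ao: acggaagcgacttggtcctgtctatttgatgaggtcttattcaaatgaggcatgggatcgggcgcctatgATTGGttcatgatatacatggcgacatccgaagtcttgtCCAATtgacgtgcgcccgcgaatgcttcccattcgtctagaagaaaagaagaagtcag

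The lists also differed in where the summits stood. Of the distinct strongest peaks, 3 of 42 and 8 of 45 in the G1E-ER4 lists, against 17 of 41 and 10 of 40 in the G1E lists had their summit inside an exon of a histone gene. In the 100 bp on either side of those summits, the median share of repeated words was 0.549 and 21.4% in G1E-ER4, against 24.2 and 70.6% in G1E, beside 1.65% in every list for summits outside. The percentiles of the peaks inside were 88.7 and 87.6 in G1E-ER4, against 83.2 and 83.4 in G1E at the median, and those of the peaks outside 87.0 and 90.5 in G1E-ER4, against 90.3 and 91.4 in G1E. The part of repeated tags in this difference was not tested. Counts changed little without the 12 genes whose windows hold over 50% repeated words, where 53 of 55 genes had a peak in all 4 lists, 6 were higher and 8 lower in G1E-ER4.

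**Figure D5:**
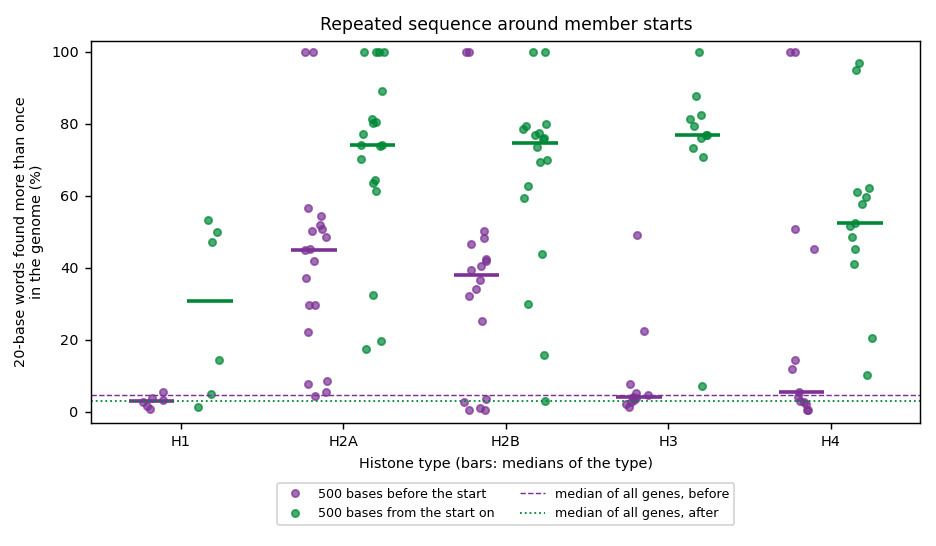
Share of 20-base words found more than once in the genome (vertical axis, percent) in the 500 bases before the start (purple) and from the start on (green) for each gene by histone type, with bars at the medians of the type and lines at the medians of all genes. The green points of H2A, H2B, H3 and H4 lie mostly far above the line of all genes at 2.91%, and the purple points of H1, H3 and H4 are mostly near theirs at 4.57%.

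Promoter elements followed the histone types. TATAAA was found in 38 of 67 histone promoters (56.7%), beside 13.4% of all promoters, and CCAAT in 57 (85.1%), beside 37.9%. ATTTGCAT was in 15 (22.4%), beside 1.72%, all of them H2A or H2B genes, and GGTCCG in 15 (22.4%), beside 9.77%. All were searched on both strands from 250 bases before to 50 after the start. A match describes the letters only. At the other end of the genes, the stem-loop that ends histone mRNAs was found by its conserved letters within 200 bp of the annotated gene end in 45 genes. The most frequent form and the most frequent H4 form are shown in the direction of transcription with the stem in capitals because they part H4 from the other types.
H4 form: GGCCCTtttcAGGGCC
common form: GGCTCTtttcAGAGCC
The H4 form ended 8 genes, all of them H4, and the common form 27 genes, of which 12 were H2A, 7 H2B, 5 H3 and 3 H1. A form that differs from the common one in its loop, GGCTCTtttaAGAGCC, ended another 8 genes, 4 of them H2B, 2 H3, 1 H2A and 1 H1. No H4 gene held a form starting with GGCTC.

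Genes that act on the replication-dependent histone genes were open as well. From a list of 18 regulators and processing factors, 17 had a promoter peak in all 4 lists (94.4%), and Cstf2, a factor of 3′ end formation, lacked it in G1E-ER4 list 1 alone. Npat, the coactivator of histone transcription, had 86.6 and 98.1 in G1E-ER4, against 98.6 and 98.8 in G1E. Hinfp, which binds H4 promoters, had 98.9 and 99.2 in G1E-ER4, against 99.4 and 99.6 in G1E. Casp8ap2, a component of histone locus bodies, had 91.2 and 98.6 in G1E-ER4, against 96.8 and 98.1 in G1E. Slbp, the stem-loop binding protein, had 92.4 and 95.4 in G1E-ER4, against 97.6 and 98.9 in G1E. Of the 18 genes, 4 (Pou2f1, Sympk, Ccne1 and Zfp473) were higher in both G1E-ER4 lists than in both G1E lists. Another 5 (Npat, Hinfp, Slbp, Yy1 and Cpsf2) were lower in both. The shares among all genes with a peak in any list were 15.5% higher and 11.7% lower. Both G1E-ER4 values of Npat, Hinfp and Slbp lay below both G1E values, by differences of the state means of -6.35, -0.43 and -4.31. Lsm10 and Lsm11, subunits of the particle that cuts histone mRNA, had 93.9 and 96.1, and 92.6 and 96.6, in G1E-ER4 and 96.1 and 97.7, and 96.8 and 92.6, in G1E.

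Histone genes outside the rule were mostly open too. Of 10 replication-independent histone genes found in the annotation, such as H2afz and H3f3b, which are made throughout the cell cycle, 9 had a promoter peak in all 4 lists. The exception, the macroH2A gene H2afy2, had peaks at 6.84 and 77.0 in G1E-ER4 and none in G1E. Their median mean percentile was 95.7 and that of the regulators 96.2, where the replication-dependent genes had 89.3. Ribosomal protein genes were taken as those whose symbol starts with Rpl or Rps followed by a digit. Of these, 81 of 144 (56.3%) had a peak in all 4 lists, with a median mean percentile of 92.7, and 48 had none in any list. The symbol rule can also take in genes of other function and extra copies, which were not sorted out. These shares thus do not describe ribosomal protein promoters alone.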

How the data were processed

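DNase-seq peak lists of 2 states were used as deposited, 2 per state, and each list took its state from the labelled cell. Per the series design text, tags of 20 bases were aligned to mm9 with Bowtie, a tag with several matches was placed at the best of them, lanes were pooled per replicate, and peaks were called per list from an F-seq density by a gamma fit. Versions, the threshold and read numbers are not given in the sources used. The deposited value of a peak is a signal, that density, and the authors' summit position is the other column used. Signals were ranked within a list only.

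Starts came from the GENCODE vM1 annotation, and sequences and repeated words from the NCBIM37 (mm9) genome, with Python 3.11.15, pandas 2.3.3, numpy 2.4.6, numba 0.67.0 and pysam 0.24.0. Coordinates are 1-based. A gene without a peak ranked below every peak. No test was run, since each state is 1 sample. The text names the 2 highest and 2 lowest genes of each type by mean percentile, genes open in 1 state, the 5 largest differences without overlap in each direction, the testis forms and 6 regulators. Pairs, copies, list orders and other single genes were chosen after their values were seen. The genes, lists and motifs were chosen with earlier results of these data known. Alternatives were windows of 250 bp and 2 kb, summits within 1 kb, the top 50% and top 20000 peaks, the 5′ end of the gene alone, regions counted once, genes with few repeats, leaving out each list and, added later, peaks over the start and leaving out Hist1h2al. Steps were tested on simulated data. One list of names, replication-independent histones, lacked 1 gene in the annotation (H1f0).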

Additional observations from a re-analysis of the deposited data

How the results depend on the processing

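No paired analysis was possible because each state is 1 sample, and nothing in the labels ties its 2 lists to those of the other state. The count of genes open in all 4 lists was 49 to 65 except when genes of 1 merged region counted once, where it was 37 of 38 groups, with 1 group open in G1E alone, 5 higher and 5 lower in G1E-ER4, by construction of fewer units. Genes open in G1E-ER4 alone numbered 1 with summits within 1 kb (Hist1h3a) and 1 in the top 20000 peaks (Hist1h4f), where 1 gene was open in G1E alone (Hist1h2al). That count was also 1 when peaks had to cover the start. Leaving out each list in turn gave 8 to 28 genes higher and 11 to 37 lower in G1E-ER4, counts not computed over all genes. It also gave 0 and 2 genes open in 1 state, and median differences of -3.42 to 0.36. Over the other alternatives the median difference ran from -2.17 to -0.13. Without genes of over 50% repeated words 6 were higher. Leaving out Hist1h2al gave 64 of 66 genes in all 4 lists and 10 lower. Depth is unknown, lists are of equal length, and a percentile gives a place within a list only.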

Other observations

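The gap between the Hist1 groups of 18 and 5 genes (chr13:21929400-22126981) was itself rich in peaks. It held 36 and 21 peaks in the G1E-ER4 lists, against 20 and 35 in the G1E lists, and 12.5 and 9.97% of its sequence lay under peaks in G1E-ER4, against 5.63 and 14.2% in G1E, beside 3.42 and 4.24% and 2.88 and 3.75% of the genome. The protein-coding genes there are Zfp184, a zinc finger gene, Pom121l2 and Prss16, a serine protease gene of the thymus. Prss16 had promoter percentiles of 55.0 and 79.4 in G1E-ER4, against 67.9 and 54.1 in G1E. In the last gap, before the pair Hist1h2ba and Hist1h2aa, the shares were 0.224 and 0.997% in G1E-ER4, against 0.723 and 2.71% in G1E.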
